A study of Mus musculus with 6 samples.

Results

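Fatty acid and cholesterol synthesis genes in marrow stroma are the subject here, a set of 34 genes that encode enzymes and regulators of fatty acid, triglyceride and sterol synthesis. The genes were taken by name from a fixed list and 32 of the 34 were among the 19938 genes with a value on the arrays. A fatty acid arm of 17 genes, a sterol arm of 13 and 4 regulators were described separately. A probe set naming that gene alone was used for each of the 32, and Acsl1 and Acsl3 were not analysed here. Another 2, Idi1 and Lss, lay below the limit for dim genes, so 30 members were tested.

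The arrays came from Cxcl12-abundant reticular (CAR) cells, marrow stromal cells rich in transcripts of the chemokine Cxcl12, sorted by flow cytometry from the marrow of femur and tibia. All mice were C57BL/6, 7 weeks old, and both groups carried the Dmp1-Cre transgene and 1 Cxcl12-gfp allele, so the transgene itself did not differ between the groups. CAR cells targeted by Dmp1-Cre were measured on 3 arrays and non-targeted CAR cells on 3 arrays. The Cre is named for Dmp1, whose product is a bone matrix protein made mainly by osteocytes and late osteoblasts, and how targeted cells were marked is not given in the sources used here. The design text gives the cells of 1 mouse as 1 sample, and the labels do not say whether a targeted and a non-targeted array of the same number came from the same mouse.

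Fatty acids are built in the cytosol from acetyl-CoA, which ATP citrate lyase releases from citrate, through acetyl-CoA carboxylase and fatty acid synthase. They are then elongated, desaturated, activated to acyl-CoA and, in part, stored as triglyceride. Cholesterol is made from the same acetyl-CoA through mevalonate, farnesyl diphosphate, squalene and lanosterol. The membrane-bound transcription factors SREBP1 and SREBP2 drive many genes of the fatty acid and sterol arms. When sterols are plentiful, INSIG proteins hold them back together with their escort protein, SCAP. CAR cells express genes of the fat cell lineage, and the comparison shows whether the subset with a history of Dmp1-Cre activity differed in the synthesis machinery.

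Promoter sequence, from 250 bases before to 50 bases after the annotated start, was held for 26 of the 34 members in the RefSeq table of GRCm38.p6. Motifs through which SREBPs and their partner factors act were searched there on both strands, with overlapping matches allowed: a sterol regulatory element (TCACNCCAC), the CCAAT box bound by NF-Y (CCAAT), the GC box bound by Sp1 (GGGCGG) and an E-box (CACGTG). No entry was held for Scd1, Scd2, Fads1, Fdps, Fdft1, Sqle, Dgat1 and Dgat2, so these were not searched. The first 3 promoters below are shown because these genes had groups of arrays that did not overlap. That of Hmgcs1 is shown because it alone among the 22 tested members with an entry held the sterol regulatory element letters. They lie at chr1:65186430-65186729 (minus strand, 1 of 2 entries in the table), chr19:10101454-10101753 (minus strand), chr5:4104648-4104947 (minus strand) and chr13:119690101-119690400 (plus strand), and are written 5′ to 3′ on the gene's strand with motif matches in capitals.
Idh1 promoter: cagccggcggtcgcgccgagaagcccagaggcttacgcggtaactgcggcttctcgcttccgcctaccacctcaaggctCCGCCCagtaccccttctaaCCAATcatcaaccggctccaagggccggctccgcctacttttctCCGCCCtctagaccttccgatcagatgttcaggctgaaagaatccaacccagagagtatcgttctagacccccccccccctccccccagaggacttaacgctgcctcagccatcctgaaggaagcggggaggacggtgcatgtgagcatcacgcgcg
Fads2 promoter: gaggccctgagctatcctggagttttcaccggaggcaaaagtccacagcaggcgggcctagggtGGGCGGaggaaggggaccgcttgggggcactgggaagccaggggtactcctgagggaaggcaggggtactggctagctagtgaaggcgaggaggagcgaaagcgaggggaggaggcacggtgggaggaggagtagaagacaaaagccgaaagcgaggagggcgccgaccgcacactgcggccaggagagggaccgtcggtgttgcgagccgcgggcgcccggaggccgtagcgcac
Cyp51 promoter: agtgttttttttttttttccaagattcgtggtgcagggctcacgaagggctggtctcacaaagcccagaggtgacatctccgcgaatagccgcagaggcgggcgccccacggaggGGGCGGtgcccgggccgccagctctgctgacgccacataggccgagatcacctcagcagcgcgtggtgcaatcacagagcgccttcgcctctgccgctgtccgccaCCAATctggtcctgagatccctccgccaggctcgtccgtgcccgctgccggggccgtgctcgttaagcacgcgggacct
Hmgcs1 promoter: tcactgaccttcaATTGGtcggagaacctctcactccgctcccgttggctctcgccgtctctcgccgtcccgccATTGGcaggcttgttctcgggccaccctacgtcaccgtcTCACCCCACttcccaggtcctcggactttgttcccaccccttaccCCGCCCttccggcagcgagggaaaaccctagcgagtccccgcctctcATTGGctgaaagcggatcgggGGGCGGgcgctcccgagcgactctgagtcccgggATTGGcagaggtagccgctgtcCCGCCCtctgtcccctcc

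The sterol regulatory element letters were found in the promoters of 2 of the 26 members, Acsl1 and Hmgcs1, and in 1.24% of all 32851 promoters. In Hmgcs1 the match began at position -137 from the start, with 4 CCAAT and 3 GC box matches around it. CCAAT letters were present in 17 of the 22 tested members with an entry, against 41.2% of all 10512 tested genes with one and 37.4% of all promoters. GC box letters were also present in 17 of the 22, against 64.5% of the tested genes with an entry and 35.7% of all promoters. The E-box letters were found in 5, namely Dhcr7, Elovl5, Insig1, Sc5d and Scap, against 11.2% of tested genes with an entry and 7.15% of all promoters. The Idh1 promoter shown held 1 CCAAT and 2 GC box matches, that of Cyp51 1 of each, and that of Fads2 1 GC box match. The Acaca entry held none of the 4 motifs in this window, which says nothing about factor binding.

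The labelled cell type was checked on its markers. Cxcl12 was bright on all 6 arrays, at log2 intensities of 12.32, 12.22 and 12.40 in targeted cells and 12.32, 12.65 and 12.63 in non-targeted cells, in the order of replicates 1 to 3. Dmp1 ranged from 9.89 to 11.28 in targeted cells, against 6.91 to 7.51. Array medians ran from 79.4 to 87.5 on the linear scale, and pairs of arrays correlated across genes at 0.91 to 0.96. Targeted replicate 1 stood apart in neutrophil markers, whose summed linear intensity over 12 genes was 1280 there, and 8249 and 11619 in targeted replicates 2 and 3. The non-targeted arrays had 9187 to 14263. All 13 stromal markers listed had lower means in targeted cells, with sums of 32210 to 41990 against 40036 to 48574. The osteoblast and osteocyte sum over 10 genes was 19092 to 29507 against 13558 to 16351. For mature fat cells the sum over 9 genes was 738 to 789 against 726 to 1051, with Lep and Cidea below the dim limit. Sums of macrophage, B cell, erythroid and endothelial markers also varied between arrays, the macrophage sum being 4020 to 4507 in targeted cells, against 4517 to 5895. Such sums weigh bright genes most, and single macrophage markers went both ways. Of 9 tested, 5 had a higher and 4 a lower mean in targeted cells (median log2 difference 0.035). The part of these cell type markers in the differences given next was not tested. In such bulk samples, fewer cells of a type and less RNA per cell cannot be told apart.

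The fatty acid arm leaned lower in targeted cells and the sterol arm did not. Of 15 tested fatty acid genes, 11 had a lower mean in targeted cells, with a median log2 difference (targeted minus non-targeted throughout) of -0.12. Of 11 tested sterol genes, 4 had a lower and 7 a higher mean (median 0.025). Among the 4 regulators 3 had a lower and 1 a higher mean (median -0.067). Over all 30 members 18 were lower, with a median of -0.033, beside 51.1% lower and a median of -0.0051 over all 13292 genes tested. The lean of the fatty acid arm depended on single arrays and on scaling. Its lower genes numbered 8 of 15 without targeted replicate 2, 9 without targeted replicate 3, 9 after quantile or cyclic loess scaling and 12 without non-targeted replicate 1. Its median ran from -0.22 without non-targeted replicate 1 to -0.052 without non-targeted replicate 2, with -0.074 when targeted replicate 2 and -0.077 when non-targeted replicate 3 was left out. With array weights it was -0.31. The sterol median ran from -0.015 without targeted replicate 2 to 0.18 without targeted replicate 3. The arms were not tested against each other.

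No member passed the threshold of 0.05 on the adjusted p of limma, a linear model fitted across all genes, and 0 of the 13292 genes did (0%). The smallest adjusted p of a member was 0.701, and 3 of the 30 members, Idh1, Acaca and Fads2, had an unadjusted p under 0.05, beside 4.77% of all genes. Of these, 2 were lower (3.42% of all genes) and 1 higher (1.35%). The count was 5 when any 1 targeted array was left out. Over all 13292 genes it was then 1116, 670 and 577 without targeted replicate 1, 2 and 3, beside 634 with all arrays. With array weights it was 9 members and 2060 of all genes. The 3 targeted arrays lay wholly above or below the 3 non-targeted arrays for 4 members, these 3 and Cyp51, or 13.3%, beside 9.07% of all genes. For 2 the targeted arrays were all above (3.32% of all genes) and for 2 all below (5.76%). Counts this small over 30 members do not stand clearly apart from these shares, and the difference was not tested. Differences beyond 0.5 on the log2 scale were found for 5 members, all of the fatty acid arm (Idh1, Scd1, Acaca, Elovl5 and Fads2), or 16.7% against 7.01% of all genes. The 95% intervals of 21 of the 30 lay wholly within a 2-fold change in either direction, so larger changes of these 21 genes fell outside their intervals. The share was larger over all genes, at 11431 of 13292.

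**Figure D1:**
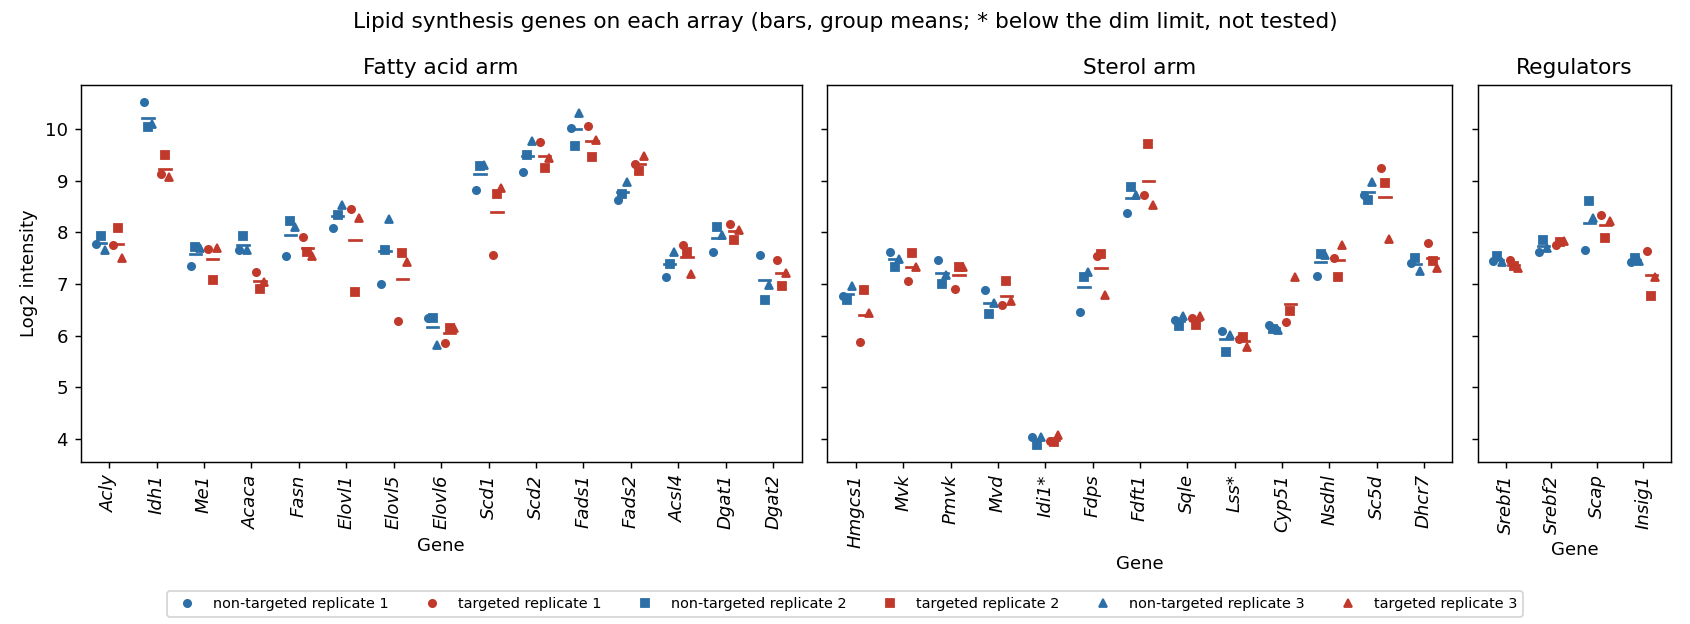
Log2 intensity (vertical axis) of the 32 members with a value, by gene, on each of the 3 non-targeted (blue) and 3 targeted (red) arrays, with symbols for replicates and short bars for group means. Idh1 and Acaca lie lower and Fads2 and Cyp51 higher on all targeted arrays, and heights of different genes are not comparable because each is a different probe set.

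**Figure D2:**
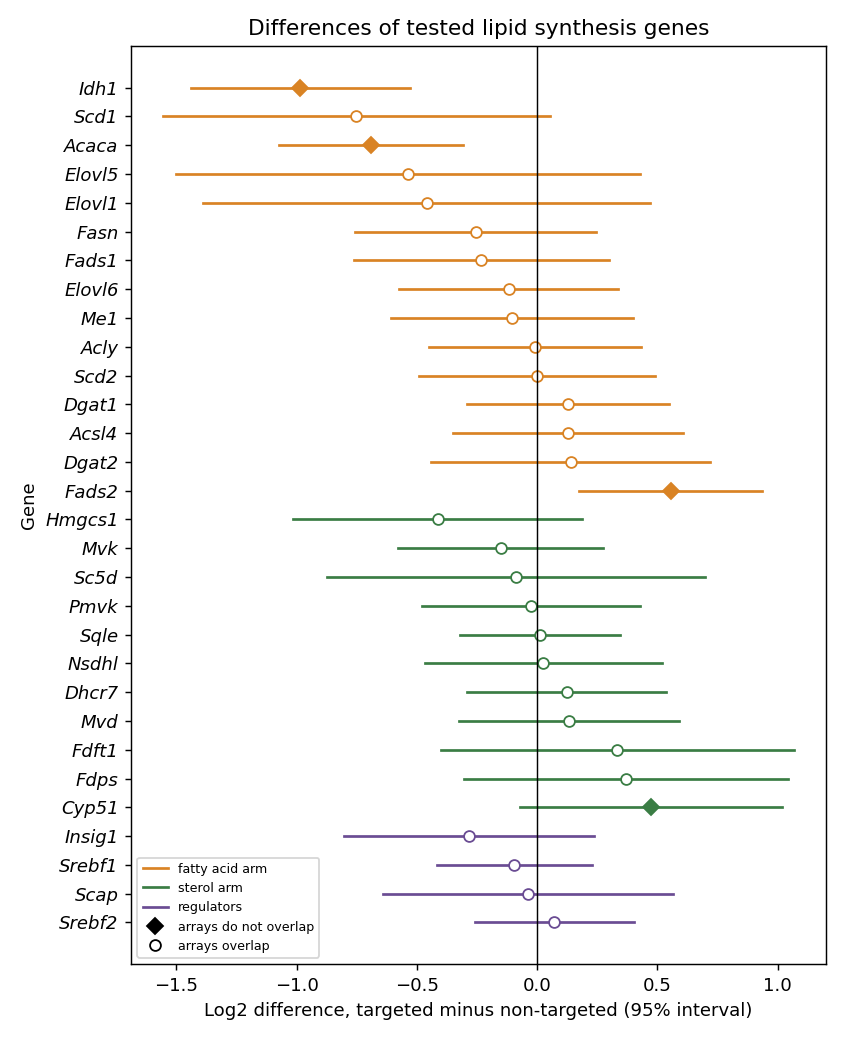
Log2 difference, targeted minus non-targeted, of the 30 tested members (points) with 95% intervals of the moderated fit (lines), by arm, where filled diamonds mark genes whose groups of arrays did not overlap. The intervals of 27 members include 0, and those of Idh1, Acaca and Fads2 do not.

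Idh1, cytosolic isocitrate dehydrogenase, which supplies NADPH for fatty acid and sterol synthesis, had the smallest p of the set. Its log2 intensity was 9.14, 9.49 and 9.08 on targeted replicates 1, 2 and 3 and 10.53, 10.04 and 10.10 on the non-targeted ones. All 3 targeted arrays lay below all non-targeted arrays, with means of 9.24 ± 0.22 and 10.22 ± 0.27 (SD, n = 3 each). This 1.98-fold lower level (log2 difference -0.99, SE 0.20, 95% interval -1.44 to -0.53) did not pass (limma, unadjusted p = 0.00116, adjusted p = 0.701). The difference ran from -1.11 to -0.83 when each array was left out in turn, and the adjusted p was lowest, at 0.130, with array weights. The other genes of substrate and NADPH supply lay near equality. Acly, the ATP citrate lyase, was at 7.75, 8.09 and 7.50 in targeted cells and 7.78, 7.94 and 7.65 in non-targeted cells. Me1, malic enzyme, which also yields NADPH, was at 7.68, 7.07 and 7.69 against 7.34, 7.71 and 7.70. For both genes the groups overlapped, with differences of -0.0089 and -0.11.

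Acaca, acetyl-CoA carboxylase, the committed step of fatty acid synthesis, was lower on its brighter probe set. That probe set was at 7.24, 6.90 and 7.03 in targeted cells and 7.66, 7.93 and 7.65 in non-targeted cells, and the groups did not overlap. The means of 7.06 ± 0.17 and 7.75 ± 0.16 (SD, n = 3) differed by -0.69 (SE 0.16, 95% interval -1.07 to -0.31, 1.61-fold), which did not pass (limma, unadjusted p = 0.00325, adjusted p = 0.734). The other probe set naming Acaca was at 6.08, 7.26 and 6.09 against 6.48, 7.30 and 6.44. Its groups overlapped, its difference was -0.26, and targeted replicate 2, the lowest array on the brighter probe set, was among the highest here. With the mean of both probe sets Acaca differed by -0.48 (limma, unadjusted p = 0.0631). Fasn, the fatty acid synthase that follows, was at 7.92, 7.62 and 7.55 in targeted cells and 7.54, 8.21 and 8.10 in non-targeted cells. Its groups overlapped because non-targeted replicate 1 was as low as the targeted arrays, and the difference of -0.26 (SE 0.22, 95% interval -0.76 to 0.25) ran from -0.46 without non-targeted replicate 1 to -0.13 without non-targeted replicate 2.

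The 3 elongases, which lengthen chains in the endoplasmic reticulum, all had lower means with overlapping arrays. Elovl5, which acts on polyunsaturated chains, was at 6.29, 7.59 and 7.42 in targeted cells and 7.01, 7.65 and 8.26 in non-targeted cells. Its difference of -0.54 (SE 0.42) came to -0.13 without targeted replicate 1, -0.23 without non-targeted replicate 3 and -0.85 without non-targeted replicate 1. Elovl1, which makes very long saturated chains, was at 8.44, 6.85 and 8.29 against 8.08, 8.35 and 8.53. Only targeted replicate 2 was low, and without it the difference of -0.46 became 0.046, against -0.75 without targeted replicate 1. Elovl6, which takes palmitate to stearate, was close to the dim limit and differed by -0.12 (-0.30 without non-targeted replicate 3, -0.024 without targeted replicate 1).

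Among the desaturases, close relatives differed in size or direction. Fads2, the delta-6 desaturase of polyunsaturated fatty acid synthesis, was at 9.32, 9.20 and 9.48 in targeted cells and 8.62, 8.74 and 8.98 in non-targeted cells. All targeted arrays lay above all non-targeted ones, with means of 9.33 ± 0.14 and 8.78 ± 0.18 (SD, n = 3). The level was 1.47-fold higher (log2 difference 0.55, SE 0.16, 95% interval 0.17 to 0.93) and did not pass (limma, unadjusted p = 0.0101, adjusted p = 0.860). It ran from 0.48 to 0.65 with single arrays left out and was 0.39 with array weights. Fads1, the delta-5 desaturase that acts on the products of Fads2 and is its neighbour in the RefSeq table, was at 10.06, 9.45 and 9.79 against 10.02, 9.67 and 10.32. Its groups overlapped, with a difference of -0.23 (SE 0.23) that ran from -0.40 without non-targeted replicate 2 to -0.074 without targeted replicate 2. Fads3, the neighbour on the other side of Fads2 and not a member, differed by -0.10.

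Scd1, the stearoyl-CoA desaturase that makes oleate, was at 7.56, 8.73 and 8.87 in targeted cells and 8.83, 9.30 and 9.30 in non-targeted cells. Targeted replicate 1 was far below the rest, and targeted replicate 3 lay just above non-targeted replicate 1. The difference of -0.75 (SE 0.35, 95% interval -1.56 to 0.054, 1.68-fold) had an unadjusted p of 0.0634 in limma and came to -0.34 without targeted replicate 1. That array was also the one low in neutrophil markers, and the part of those cells in the Scd1 value was not tested. Scd2, the related desaturase of the same gene cluster, was at 9.74, 9.25 and 9.45 against 9.17, 9.50 and 9.78, with a difference of -0.00084 (95% interval -0.49 to 0.49). Scd3 and Scd4, which neighbour Scd2 in the RefSeq table, were below the dim limit. Within each array, log2 Fads2 minus Fads1 averaged -0.44 on targeted and -1.22 on non-targeted arrays. Its values were -0.74, -0.25 and -0.32 against -1.40, -0.94 and -1.34, and the difference of 0.79 ran from 0.70 to 0.94 with single arrays left out. Log2 Scd1 minus Scd2 was -2.18, -0.51 and -0.58 against -0.35, -0.20 and -0.48. Targeted replicate 1 set most of the latter difference, which was -0.75 over all arrays and -0.21 without that array. The groups of arrays did not overlap for either pair, though for Scd1 minus Scd2 the nearest arrays lay at -0.51 and -0.48. An exact two-sided permutation test over the arrays gave p = 0.1 for each, the smallest that 3 arrays against 3 can give, and 0.1 after adjustment over the 2 pairs, which were chosen after their values were seen. Groups without overlap always give this p, so the test adds nothing to the lack of overlap.

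The tested genes that use the finished fatty acids, Acsl4, Dgat1 and Dgat2, had close means on overlapping arrays, and Acsl1 and Acsl3 were not analysed. Their 95% intervals were wide, at -0.35 to 0.61 for Acsl4 and -0.29 to 0.55 for Dgat1. Acsl4, an acyl-CoA synthetase that prefers arachidonate, was at 7.75, 7.61 and 7.19 in targeted cells and 7.14, 7.40 and 7.63 in non-targeted cells. Dgat1 and Dgat2, the enzymes of the last step of triglyceride synthesis, differed by 0.13 and 0.14. Dgat2 was at 7.47, 6.96 and 7.21 against 7.55, 6.69 and 6.98, with wide overlap and a 95% interval of -0.44 to 0.72. Dgat1 was at 8.15, 7.85 and 8.05 against 7.62, 8.11 and 7.94.

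In the first part of the sterol arm, from acetyl-CoA to farnesyl diphosphate, 3 of 5 tested genes were lower and 2 higher. Hmgcs1, the HMG-CoA synthase whose promoter held the sterol regulatory element letters, was at 5.87, 6.89 and 6.43 in targeted cells and 6.77, 6.69 and 6.97 in non-targeted cells. Targeted replicate 1 was lowest and targeted replicate 2 lay within the non-targeted range. Its difference of -0.41 (SE 0.26, 95% interval -1.02 to 0.19) came to -0.15 without targeted replicate 1 and -0.66 without targeted replicate 2. Fdps, farnesyl diphosphate synthase, was at 7.54, 7.59 and 6.79 against 6.45, 7.13 and 7.23. It differed the other way, by 0.37 (SE 0.29), by 0.13 without non-targeted replicate 1 and by 0.63 without targeted replicate 3 (unadjusted p = 0.0490 in limma). The kinases Mvk and Pmvk and the decarboxylase Mvd, which carry mevalonate to isopentenyl diphosphate, differed by -0.15, -0.026 and 0.13. Idi1, the isomerase of the next step, was dim on both of its probe sets, whose 12 values ran from 3.62 to 4.07.

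In the part from squalene to cholesterol 5 of 6 tested genes had higher means, by 0.010 (Sqle) to 0.47 (Cyp51). Among these only Cyp51 kept its direction with each array left out in turn. Cyp51, the lanosterol demethylase, was at 6.26, 6.47 and 7.14 in targeted cells and 6.20, 6.12 and 6.12 in non-targeted cells. The groups did not overlap, but targeted replicate 1 exceeded the highest non-targeted array by a narrow margin. The level was 1.39-fold higher (log2 difference 0.47, SE 0.23, 95% interval -0.071 to 1.02) and did not pass (limma, unadjusted p = 0.0797), and the difference was 0.21 without targeted replicate 3. Sqle, the squalene epoxidase and a rate-limiting step after mevalonate, was at 6.33, 6.20 and 6.37 against 6.30, 6.19 and 6.38. These values were almost the same, with a difference of 0.010 and a 95% interval of -0.32 to 0.34. They lay close to the dim limit of 6.00, as did the non-targeted values of Cyp51, and differences may be compressed there. Fdft1, squalene synthase, was at 8.72, 9.72 and 8.54 against 8.37, 8.88 and 8.73. Targeted replicate 2 alone was high, and without it the difference of 0.33 became -0.031, against 0.56 without targeted replicate 3. Sc5d, lathosterol desaturase, was at 9.24, 8.95 and 7.87 against 8.72, 8.63 and 8.99, with targeted replicate 3 alone low, and its difference of -0.088 became 0.32 without that array and -0.36 without targeted replicate 1. Nsdhl and Dhcr7, which act on later sterol intermediates, differed by 0.025 and 0.12. Lss, lanosterol synthase, was dim, at 5.90 ± 0.10 and 5.93 ± 0.22 (SD, n = 3).

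**Figure D3:**
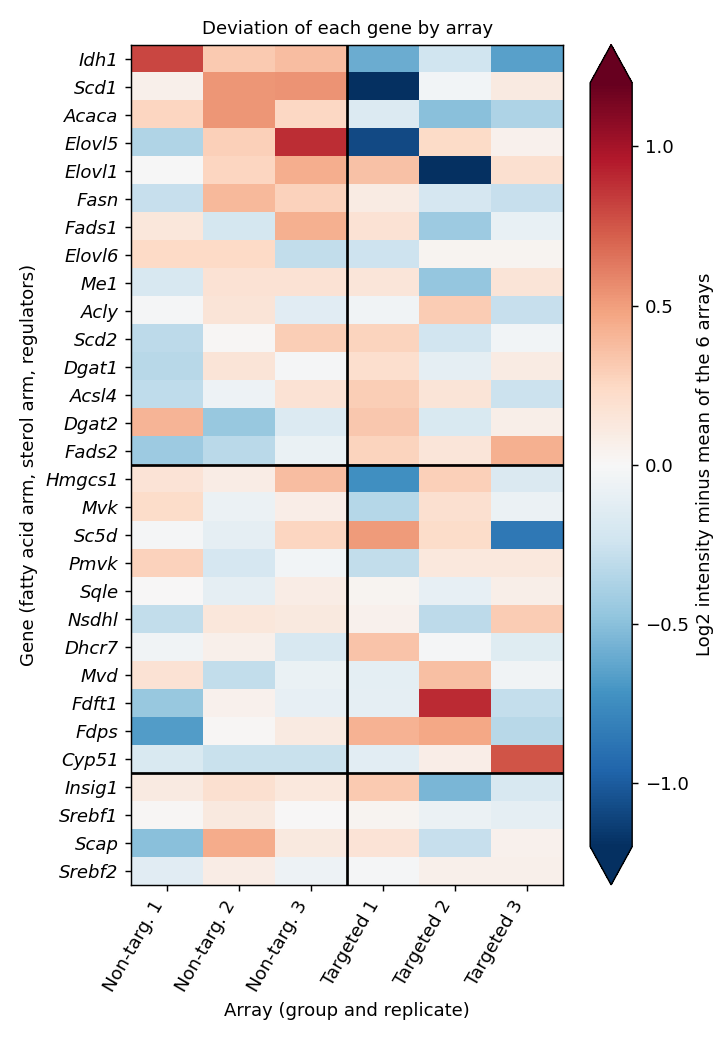
Log2 intensity of each of the 30 tested members minus its mean over the 6 arrays (colour, red higher and blue lower, with the scale cut at its ends), with a column for each array and lines between the groups and between the fatty acid arm, the sterol arm and the regulators. Scd1 and Elovl5 were lowest in targeted replicate 1, Elovl1 in targeted replicate 2 and Sc5d in targeted replicate 3, so no single array carried the low values of all members.

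Of the SREBP regulators, Srebf1, Srebf2 and Scap had close means in both groups, and the value of Insig1 varied with the arrays used. Srebf1, which encodes the SREBP1 forms that favour fatty acid genes, was at 7.46, 7.35 and 7.31 in targeted cells and 7.44, 7.54 and 7.43 in non-targeted cells. Its difference was -0.095 (SE 0.14, 95% interval -0.42 to 0.23). Srebf2, whose product favours sterol genes, was at 7.76, 7.82 and 7.83 against 7.63, 7.86 and 7.71, a difference of 0.070 (95% interval -0.26 to 0.40). Both intervals lie well inside a 2-fold change, though they cover transcript levels alone and not cleavage of the proteins. Insig1, which retains the SREBP complex in the endoplasmic reticulum and is itself a target of SREBPs, was at 7.63, 6.77 and 7.13 against 7.43, 7.51 and 7.45. The targeted arrays spread to both sides of the tightly grouped non-targeted ones, and the difference of -0.28 (SE 0.22) came to -0.081 without targeted replicate 2 and -0.51 without targeted replicate 1 (unadjusted p = 0.0212 in limma), and was -0.43 with array weights (unadjusted p = 0.0317). Scap, the escort protein gene, was at 8.33, 7.89 and 8.21 against 7.66, 8.62 and 8.28 and differed by -0.040.

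**Figure D4:**
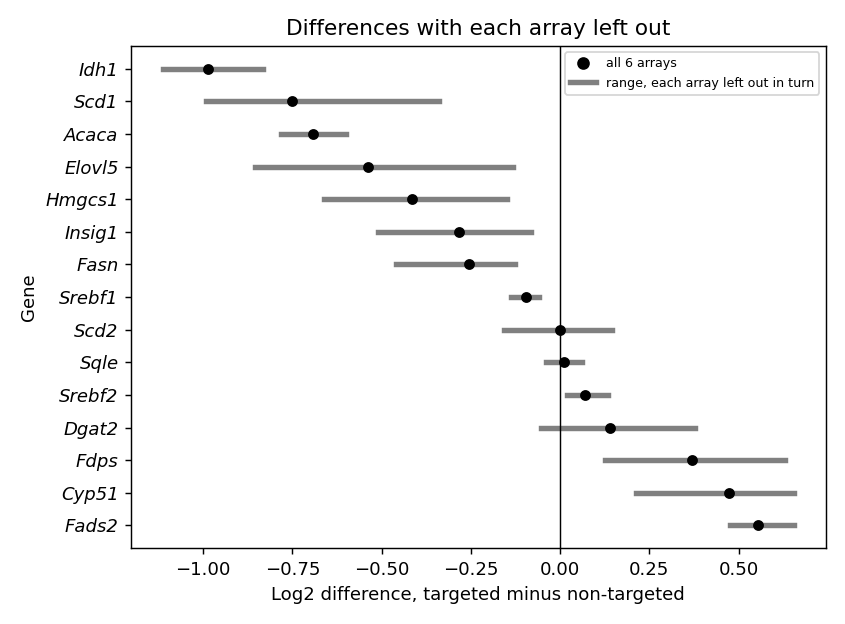
Log2 difference, targeted minus non-targeted, of 15 members over all 6 arrays (black points) and its range when each array was left out in turn (grey bars). Idh1, Acaca (brighter probe set) and Fads2 have short ranges far from 0. Those of Srebf1, Srebf2, Insig1, Fdps, Fasn, Elovl5 and Hmgcs1 come close to 0 at one end, and the ranges of Scd2, Sqle and Dgat2 cross it.

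Over the 30 tested members, 16 kept the direction of their difference with each array left out in turn, 11 of them lower and 5 higher. Counts of the array on which a gene was lowest were spread over all arrays: 9 members were lowest in non-targeted replicate 1 and 5, 6 and 4 in targeted replicates 1, 2 and 3. Mean log2 levels over the 15 tested fatty acid genes were 8.02, 7.92 and 8.05 in targeted cells and 8.08, 8.24 and 8.31 in non-targeted cells. These means did not overlap, though targeted replicate 3 and non-targeted replicate 1 lay close together. The order of those arrays depended on Idh1 alone, at 9.08 on targeted replicate 3 and 10.53 on non-targeted replicate 1. The separation is therefore not a trait of the arm as a whole. Over the 11 sterol genes they were 7.25, 7.49 and 7.23 against 7.21, 7.22 and 7.32, and overlapped.

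Other genes of the same pathways, listed without regard to how they moved but with earlier results of these data known, are given next, and none passed in limma. Of 15 tested further genes of fatty acid synthesis and desaturation 11 were lower, with a median of -0.072. Degs1, the desaturase that makes ceramide from dihydroceramide, was at 8.25, 7.78 and 7.85 in targeted cells and 8.64, 8.40 and 8.30 in non-targeted cells, without overlap (-0.49, unadjusted p = 0.0309 in limma). Hsd17b12, the ketoreductase of chain elongation, differed by -0.24 and by -0.12 without non-targeted replicate 3. Of 13 genes of glycerolipid synthesis 8 were lower (median -0.064). Agpat5, an acyltransferase of phosphatidic acid synthesis, was at 8.57, 7.30 and 7.70 against 8.54, 8.80 and 8.95, with targeted replicate 1 inside the non-targeted range (-0.91, unadjusted p = 0.0208), and Mogat2, a monoacylglycerol acyltransferase, differed by 0.20 (0.099 without targeted replicate 3 and 0.31 without targeted replicate 1).

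Of 8 further sterol synthesis genes 6 were lower (median -0.066), so this list leaned the other way from the sterol arm. The 2 with the smallest p were the 2 higher ones. Acat1, a mitochondrial acetoacetyl-CoA thiolase, was at 9.07, 9.14 and 8.72 against 8.62, 8.77 and 7.62. Its groups overlapped, and the difference of 0.64 came to 0.29 without non-targeted replicate 3. Lbr, a nuclear envelope protein with sterol reductase activity, was at 7.97, 6.87 and 6.99 against 7.12, 6.68 and 6.78. Targeted replicate 1 alone was high, and the difference of 0.42 came to 0.072 without it. The lowest of the others, named after their values were seen, were Msmo1, a sterol methyl oxidase, at -0.41 and Hsd17b7, a ketosteroid reductase, at -0.29. Of 12 genes of SREBP processing, sterol uptake and efflux 6 were higher and 6 lower (median -0.0094). Erlin1, an endoplasmic reticulum protein linked to SREBP retention, was at 7.84, 8.50 and 8.46 against 7.56, 7.81 and 7.30 and did not overlap (0.71, unadjusted p = 0.0154), and Nr1h3, the sterol-sensing receptor LXR alpha, differed by 0.39 and by 0.18 without non-targeted replicate 3.

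Of 16 tested genes listed for fat cells, 13 were lower (median -0.15). The list mixes genes of lipid storage and release with the transcription factors Pparg, Cebpa, Cebpb and Klf15 and the secreted factors Adipoq and Retn. Mgll, the monoglyceride lipase, lay the other way, at 9.25, 7.30 and 7.48 in targeted cells and 6.52, 6.47 and 6.27 in non-targeted cells. All targeted arrays were higher and targeted replicate 1 far above the rest (3.01-fold, log2 difference 1.59, SE 0.47, adjusted p = 0.864 in limma), and the difference was 0.97 without that array. Pnpla2, the triglyceride lipase that acts before it, was at 6.59, 6.93 and 7.00 against 7.21, 7.40 and 7.09 and lower without overlap (-0.40, adjusted p = 0.9998).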

How the data were processed

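Probe set values were deposited as array intensities on a linear scale, for which the submitters' processing notes name RMA and Affymetrix Expression Console 1.4, and their log2 was taken here. Probe sets were named through the platform annotation (21789 of 35556 name 1 gene) and updated through the RefSeq table of GRCm38.p6. The probe set with the highest mean over 6 arrays was kept for each of 19938 genes. Dim genes, the lowest 33.3% by mean (log2 up to 6.00), were left out, and 13292 were tested.

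Targeted and non-targeted arrays (3 each) entered a linear model in limma 3.58.1 (lmFit and eBayes, R 4.3.3), with two-sided p-values adjusted by the Benjamini-Hochberg method over all genes tested. With 3 arrays a group, precision is limited. The p-values set each difference of means against the spread between these samples, moderated across all genes. In 20 simulated runs of this comparison on 13292 genes, 60.9% of genes changed 2-fold and 98.2% of those changed 4-fold were called. Each run planted 200 genes changed 2-fold to 16-fold in independent normal noise, and 11 unchanged genes were called on average. So many strong changes make the adjusted threshold easier to pass. The real comparison had 0 genes called, so these shares do not give its power. Members, gene lists and named genes (the 8 smallest p-values and 10 set members) were chosen with earlier results of these data known. Of each other pathway list, the 2 genes with the smallest p-values were named. Alternatives were other filters, scalings, variance models, weights, probe set means, a replicate block and each array left out. Figures were drawn with matplotlib 3.10.9.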

Additional observations from a re-analysis of the deposited data

How the results depend on the processing

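No member passed under any of the 17 alternatives to the reported fit, and the smallest adjusted p of a member over them was 0.130, with array weights. The count of genes passing in limma was 0 in the reported fit and became 1, Dmp1, with the fixed replicate block and with array weights. The members with lower means numbered 15 to 19 of 30 in fits that left out single arrays, beside 18. The median of all members ran from -0.096 to -0.020 there, that of the fatty acid arm from -0.22 to -0.052, and that of the sterol arm from -0.015 to 0.18. With array weights the fatty acid median was -0.31, an alternative added for the medians after the data were seen, as was leaving out arrays for gene pairs and for genes of other lists. After quantile scaling 15 of 30 members were lower, with a median of 0.0061. Of 253 alternative values of 15 members, 239 kept their direction. Many of the 253 could not turn, because filters, variance models and replicate blocks leave a difference as it is. Those that turned were near 0. With single arrays left out, Scd2 ran from -0.16 to 0.15, Sqle from -0.040 to 0.061 and Dgat2 from -0.052 to 0.38. Scd2 was at 0.050 after quantile scaling, 0.083 after cyclic loess and 0.0046 with arrays centred on their median, and at 0.0075 to 0.15 without non-targeted replicate 2 or 3 or targeted replicate 2 (0.12) or 3 (0.015). Sqle was at -0.0073 after quantile scaling, -0.025 after cyclic loess, -0.076 with array weights, and at -0.040 to -0.0054 without non-targeted replicate 2 or targeted replicate 1 or 3 (-0.024). Dgat2 was at -0.052 without non-targeted replicate 2. The cause of these turns was not tested. Cyp51 and Sqle gave no value under the stricter filter on dim genes. With 3 arrays a group, the values cannot settle whether the replicate numbers pair the arrays. Deviations from group means correlated at -0.26, -0.12 and 0.065 between arrays of the same number, and 1 of 6 arrays was closest to its own number. With the fixed replicate block 4 members had an unadjusted p under 0.05 in limma, beside 576 of the 13292 genes. Scd1 was among these members (unadjusted p = 0.0144 in limma), and the fold changes were the same. With the random replicate block the counts were 3 members and 407 genes.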

Other observations

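Besides Acaca, 3 members had a second probe set naming the gene alone. For Fdft1 it was at 7.02, 8.05 and 6.72 in targeted cells and 7.06, 7.52 and 7.12 in non-targeted cells, high in targeted replicate 2 like the brighter one, and differed by 0.031 in place of 0.33. For Me1 it was at 7.62, 7.00 and 7.84 against 7.33, 7.53 and 7.60, low in targeted replicate 2 like the brighter one, and differed by -0.0044 in place of -0.11. For Idi1 both probe sets were dim, with differences of -0.0034 and 0.0015.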
